A study of Mus musculus with 6 samples.

Results

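The heat shock chaperones followed here are 10 mouse genes: the transcription factor gene Hsf1, the cytosolic HSP70 genes Hspa8, Hspa1a and Hspa1b, their partners Dnajb1 and Hsph1, the HSP90 genes Hsp90ab1 and Hsp90aa1, the HSP90 partner Chordc1, and the mitochondrial chaperonin gene Hspd1. They were chosen by symbol, each symbol matched 1 Ensembl identifier, and they are 10 of the 55487 genes in the count files. RNA was measured in LSK cells (lineage negative, c-KIT positive, SCA1 positive), a sorted bone marrow fraction rich in blood-forming stem and progenitor cells. There were 3 libraries from BrmKO mice, labelled as knockouts of Brm (gene Smarca2), one of the alternative motor subunits of SWI/SNF chromatin remodellers, and 3 from wild-type (WT) mice, all with the strain background written as C56Bl/6. No treatment, age or sex is given in the labels, and neither is the part of Smarca2 that was removed. The series' design text gives 3 mice per genotype. Nothing there names litters or sort days.

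Heat shock proteins are chaperones that bind unfolded or newly made proteins and help them fold. In unstressed mammalian cells the factor HSF1 is held inactive by chaperones. On proteotoxic stress it is freed, forms trimers and binds heat shock elements, which are inverted repeats of the unit GAA, and induces genes such as Hspa1a, Hspa1b and Dnajb1. Hspa8 and Hsp90ab1 are the constitutive paralogs. Blood stem cells are known for a low rate of protein synthesis, and Hsf1 is known to act in keeping their protein pool in order when they are cultured.

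Smarca2 was checked first. It had 26.9, 26.5 and 27.9 CPM (counts of reads in genes, scaled to library size with TMM factors) in BrmKO replicates 1 to 3, against 174, 213 and 150.1 CPM in WT replicates 1 to 3, a log2 fold change of -2.72 ± 0.13 (SE; edgeR, adjusted p = 2.97e-05). Library depth was 29.18 to 33.29 M reads in genes in BrmKO and 28.01 to 36.46 M in WT. The LSK markers Kit, Cd34 and Flt3 stood at 976 ± 27.5, 1047 ± 17.7 and 538 ± 15.7 CPM in BrmKO and 941 ± 91.0, 996 ± 32.8 and 494 ± 25.1 CPM in WT (SD, n = 3 each). Ly6a, which encodes SCA1, had 26.0 to 35.7 CPM in BrmKO and 18.7 to 31.1 CPM in WT, or 89.3 ± 14.6 and 72.1 ± 17.7 TPM (level per length, explained with the chaperone levels). The libraries numbered 3 of both genotypes stood apart on the second principal component, which held 25% of the variance, and had 9.29% (BrmKO) and 8.41% (WT) of their reads outside genes, against 5.79% to 6.61% in the other 4. The fold change of each chaperone is therefore also given without those libraries.

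The upstream sequence of 3 members is shown because they hold a match to a pair of heat shock element units, the sequence that HSF1 is known to bind. RefSeq upstream windows (GRCm38.p6) were matched for 6 of the 10 members, and the 250 bases before the RefSeq start were searched on both strands for the repeats GAANNTTC and TTCNNGAA, each of which reads the same on the opposite strand. Capitals mark such a match. The Hspa1a window is chr17:34972157-34972406 and the Hspa1b window chr17:34959239-34959488, both on the minus strand, and for Hsph1 a stretch of 30 bases on the minus strand, chr5:149636351-149636380, is given.
Hspa1a: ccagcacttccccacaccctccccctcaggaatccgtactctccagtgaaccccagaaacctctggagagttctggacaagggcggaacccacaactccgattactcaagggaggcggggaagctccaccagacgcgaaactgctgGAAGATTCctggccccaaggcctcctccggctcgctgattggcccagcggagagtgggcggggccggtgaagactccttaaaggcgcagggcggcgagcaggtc
Hspa1b: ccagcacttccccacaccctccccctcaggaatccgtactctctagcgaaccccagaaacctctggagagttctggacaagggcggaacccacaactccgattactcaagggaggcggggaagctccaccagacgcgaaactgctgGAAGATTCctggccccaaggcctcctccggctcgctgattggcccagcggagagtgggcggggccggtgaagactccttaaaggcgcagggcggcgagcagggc
Hsph1: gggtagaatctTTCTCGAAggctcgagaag
Hspa1a and Hspa1b had the same match, which began 104 bases before the start, and their windows were identical at 247 of 250 bases (98.8%). Counted from the first base of the window, with the Hspa1a base first and the Hspa1b base last, the differences were C44T, T47C and T249G. The Hsph1 match began 33 bases before the RefSeq start, which lies 40 bases inside the gene as GENCODE gives it below, so the match itself is within that gene's first bases. No match to these letters lay in the windows of Chordc1, Dnajb1 and Hspd1. The Hspd1 window lies wholly within the neighbouring gene Hspe1, which runs on the opposite strand. The RefSeq start of Chordc1 lies 142 bases inside the GENCODE gene, so much of its window is within the gene and not all of the 250 bases before the GENCODE start were searched. Of all 32851 windows of the same length in the table, 6.69% held GAANNTTC and 7.17% held TTCNNGAA. The element of 3 alternating units, spaced as in the pairs above, was in none of the 6 windows and in 0.466% of all windows. The pentamer CCAAT or its complement ATTGG lay in the windows of Hsph1, Hspa1a, Hspa1b and Dnajb1, and in 33.8% of all windows.

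The 10 members ranged widely in level, and Hsp90ab1, Hspa8 and Hspa1b stood at the top in both genotypes. On the TPM scale (reads per kilobase of exon, scaled to the same sum in every library), Hsp90ab1 averaged 3060.2 ± 216 in BrmKO and 3121 ± 298 in WT, Hspa8 2447 ± 472 and 3215 ± 452, and Hspa1b 1942 ± 612 and 2513 ± 1864 (SD, n = 3 each). Hspa8 averaged above Hsp90ab1 in WT and below it in BrmKO, and in WT the 3 did not differ beyond their spread. Dnajb1 (825 ± 170.3 TPM in BrmKO, 914 ± 424 TPM in WT), Hsp90aa1 (806 ± 36.3 and 884 ± 116 TPM), Hspa1a (668 ± 215 and 812 ± 577 TPM) and Hspd1 (581 ± 90.2 and 648 ± 142 TPM) formed a second tier whose neighbours did not differ beyond their spread. Hsph1 (88.2 ± 7.07 and 116 ± 9.24 TPM), Hsf1 (72.8 ± 5.67 and 77.1 ± 5.65 TPM) and Chordc1 (50.9 ± 4.97 and 62.4 ± 6.15 TPM) were lowest. Averaged over the 6 libraries, Hspa8 and Hsp90ab1 each lay at the 99.9th percentile of the 15691 genes tested, and Chordc1, the lowest member, at percentile 74.1. Together the 10 genes took 0.920%, 0.994% and 1.16% of the reads in BrmKO replicates 1 to 3 and 1.03%, 1.17% and 1.43% in WT replicates 1 to 3. With the length of the longest transcript in place of all exons, Hsf1 stood above Hsph1 in BrmKO (112 to 129 against 91.3 to 107 TPM).

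**Figure D1:**
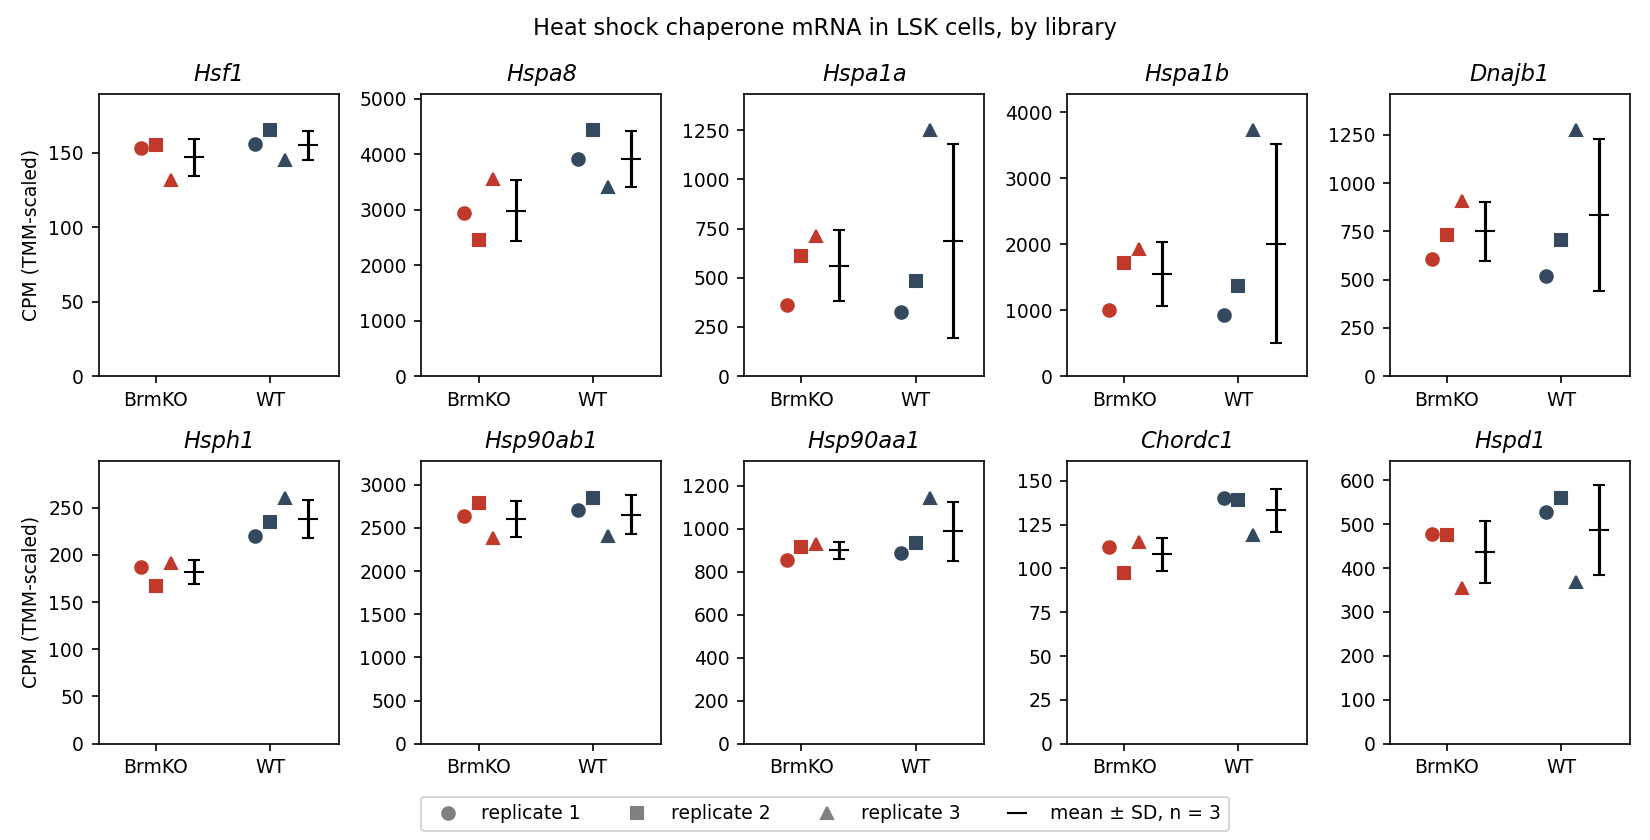
CPM (TMM-scaled, vertical axes from 0) of the 10 heat shock chaperone genes in each of 3 BrmKO and 3 WT libraries, with the mean and SD of each group as bars. Hsph1 and Chordc1 have no overlap between the groups, while Hspa1a, Hspa1b and Dnajb1 are highest in WT replicate 3, at 1249.6, 3727 and 1274 CPM.

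Hsf1 (ENSMUSG00000022556, chr15:76477422-76501913, plus strand), the gene of the stress-responsive factor itself, had no detectable difference. It had 153, 155 and 132 CPM in BrmKO replicates 1 to 3, against 156, 165 and 145 CPM in WT replicates 1 to 3. The groups overlapped, and replicate 3 was the lowest of either genotype. The log2 fold change was -0.08 ± 0.09 (95% interval -0.30 to 0.13; edgeR, adjusted p = 0.999), and -0.06 without both libraries numbered 3. This is a measure of mRNA, and HSF1 is largely regulated as a protein. Of the 10 HSF genes and HSF1 regulators listed, 8 were tested, 5 had a log2 fold change above 0 and 3 below, and 0 passed, with a median of 0.07. Hsf2, a second factor of the family, stood at 4.60 ± 1.27 CPM in BrmKO and 4.24 ± 0.525 CPM in WT. Trim28, Sirt1 and Eef1a1, regulators of HSF1, had log2 fold changes of 0.13 ± 0.13, -0.10 ± 0.12 and 0.06 ± 0.09 (adjusted p = 0.999 each).

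Hspa8 (ENSMUSG00000015656, chr9:40800984-40810087, plus strand) encodes HSC70, the constitutive HSP70. It had 2946, 2453 and 3548 CPM in BrmKO, against 3916, 4433 and 3418 CPM in WT. BrmKO replicate 3 lay above WT replicate 3, so the groups overlapped, while the other BrmKO libraries lay below every WT library. The log2 fold change was -0.40 ± 0.15 (95% interval -0.72 to -0.07), with an unadjusted p of 0.0233 that did not pass adjustment over all genes (edgeR, adjusted p = 0.746). Without both libraries numbered 3 it was -0.63 ± 0.10 (adjusted p = 0.0691). Over all alternatives the adjusted p ranged from 0.0691 to 1.0. The gene hosts the small nucleolar RNAs Snord14c, Snord14d and Snord14e in its introns, which had 0 reads.

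Hspa1a (ENSMUSG00000091971, chr17:34969190-34972156, minus strand) and Hspa1b (ENSMUSG00000090877, chr17:34956436-34959238, minus strand) are adjacent genes for the stress-inducible HSP70. Hspa1a had 362, 610.4 and 713 CPM in BrmKO, against 326, 484 and 1249.6 CPM in WT. Hspa1b had 997, 1714 and 1922 CPM in BrmKO, against 921, 1372 and 3727 CPM in WT. In both genes replicate 1 was lowest and replicate 3 highest within each genotype, and the BrmKO values lay inside the WT range. The highest WT library held 3.83 times the lowest for Hspa1a and 4.05 times for Hspa1b, against 1.97 and 1.93 times among BrmKO libraries. The log2 fold changes were -0.29 ± 0.57 (95% interval -1.73 to 1.16) for Hspa1a and -0.38 ± 0.59 (-1.87 to 1.12) for Hspa1b (edgeR, adjusted p = 0.999 each). Without WT replicate 3 they turned to 0.47 and 0.43, and without both libraries numbered 3 to 0.27 and 0.24, so 1 library decided their sign.

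The transcripts of Hspa1a and Hspa1b share 99.4% of their bases over 73.5% of the length of Hspa1a. The counter named in the processing notes, HTSeq, by default drops reads that align to several places. The counts of both genes may thus be too low, and the split between them is uncertain. The same limit holds for their TPM above and for their ratio to Hspa8 below. The ratio of Hspa1b to Hspa1a on the TPM scale varied little, at 2.91, 2.97 and 2.85 in BrmKO and 2.99, 3.00 and 3.16 in WT. All BrmKO ratios lay below all WT ratios, with a log2 difference of -0.07 (BrmKO minus WT; exact permutation p = 0.1, two-sided, the smallest that 3 against 3 allow). This ratio was chosen after its values were seen. Hspa1a is also overlapped by Gm20481 on the opposite strand, a gene with 0 reads in all libraries. The strand setting was not given, so reads in the overlap may have been dropped as ambiguous, which was not tested. Hspa1l, the third HSP70 gene of this locus, was barely detected, at 0.488 to 0.635 CPM in BrmKO and 0.431 to 0.527 CPM in WT.

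Dnajb1 (ENSMUSG00000005483, chr8:83608193-83612653, plus strand) encodes the J-domain protein HSP40, which delivers clients to HSP70 and stimulates its ATPase. It had 608, 733 and 909 CPM in BrmKO, against 517, 708 and 1274 CPM in WT. Within each genotype the libraries stood in the same order as for Hspa1a and Hspa1b, and the BrmKO values lay inside the WT range. The log2 fold change was -0.15 ± 0.32 (95% interval -0.92 to 0.62; edgeR, adjusted p = 0.999), 0.29 without WT replicate 3, and 0.13 without both libraries numbered 3. Of 18 listed J-domain genes, all tested, 7 lay above 0 and 11 below, with a median of -0.04, and 0 passed. Dnajc6, the clathrin-uncoating auxilin, stood at 35.9 ± 3.77 CPM in BrmKO and 27.5 ± 4.42 CPM in WT (0.38 ± 0.14, adjusted p = 0.746). Dnaja1, another HSP70 partner, had 409.7, 317 and 297 CPM in BrmKO and 454, 498 and 278 CPM in WT (-0.27 ± 0.21), lowest in replicate 3 of both genotypes, unlike Dnajb1.

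Hsph1 (ENSMUSG00000029657, chr5:149614287-149636376, minus strand) encodes HSP110, a nucleotide exchange factor that resets HSP70 and joins it in dissolving aggregates. It had 187, 167 and 191 CPM in BrmKO, against 220.3, 235 and 260.3 CPM in WT. Every BrmKO library lay below every WT library, and the ratio of the fitted levels was 0.762. The log2 fold change was -0.39 ± 0.10 (95% interval -0.61 to -0.17; edgeR, unadjusted p = 0.00265, adjusted p = 0.327). Hsph1 passed with DESeq2 (adjusted p = 0.0383), a tool that called 0.739% of the genes to which it gave an adjusted p. It did not pass in any other alternative, where the adjusted p reached 0.799. Its log2 fold change ranged from -0.45 to -0.32 when single libraries were left out, and was -0.36 without both libraries numbered 3 (adjusted p = 0.178). Its relatives Hspa4 and Hspa4l stood at -0.06 ± 0.09 and -0.15 ± 0.10, and Hspa2, a further HSP70, at -0.27 ± 0.18. Of 11 HSP110 and HSP70 genes tested, members included, 10 lay below 0 and 0 passed. Of the exchange factors and cochaperones of HSP70, 13 were tested, 9 lay below 0 and 0 passed, with a median of -0.06. St13, which encodes the HSP70-interacting protein HIP, had 145, 143 and 137 CPM in BrmKO, against 164, 168 and 149 CPM in WT (-0.18 ± 0.08, adjusted p = 0.871), and Bag3, an exchange factor of selective autophagy, had a log2 fold change of -0.31 ± 0.18 (adjusted p = 0.944).

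**Figure D2:**
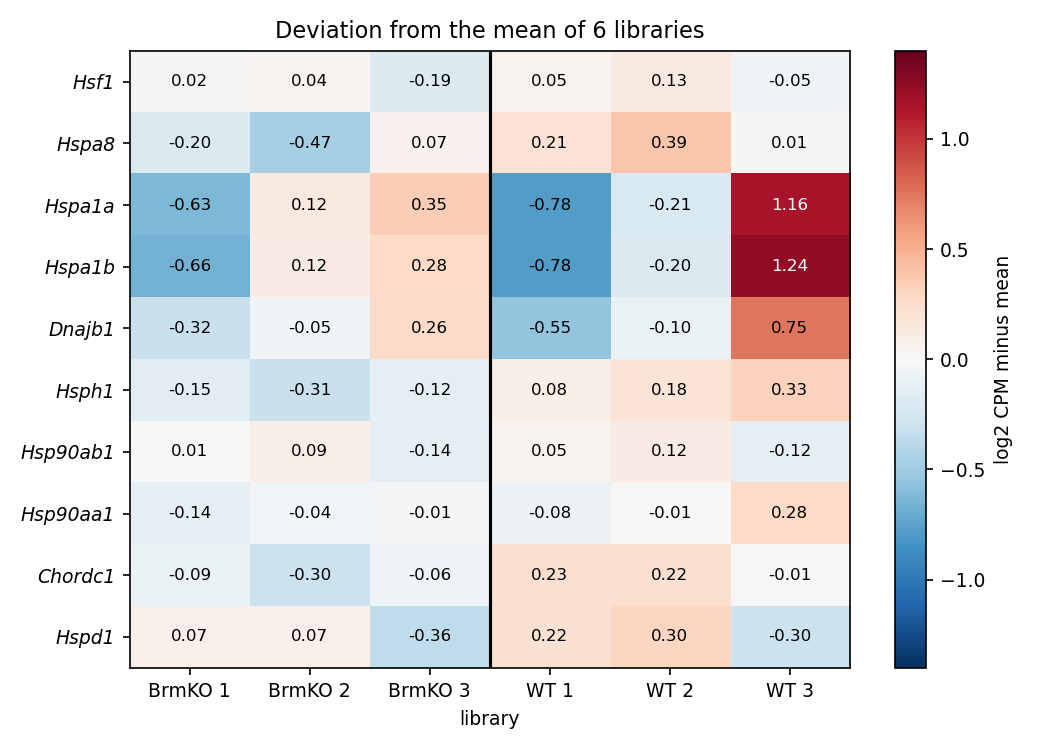
Log2 CPM of each member minus its mean over 6 libraries (colour and printed value), with BrmKO libraries on the left and WT libraries on the right. Hspa1a, Hspa1b and Dnajb1 share a pattern with the extremes in WT replicate 3 (1.16, 1.24 and 0.75) and WT replicate 1 (-0.78, -0.78 and -0.55), whereas Hspd1, Hsp90ab1 and Hsf1 are lowest in the libraries numbered 3.

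For the HSP90 pair both intervals spanned 0. Hsp90ab1 (ENSMUSG00000023944, chr17:45567775-45573271, minus strand), the constitutive form, had 2643, 2791 and 2382 CPM in BrmKO, against 2711, 2849 and 2407 CPM in WT. The groups overlapped and replicate 3 was lowest in both. Its log2 fold change was -0.03 ± 0.10 (95% interval -0.26 to 0.20; edgeR, adjusted p = 0.999). Hsp90aa1 (ENSMUSG00000021270, chr12:110690605-110702728, minus strand), the inducible form, had 854, 914 and 929 CPM in BrmKO, against 885, 933 and 1143 CPM in WT. The groups overlapped, with WT replicate 3 above the rest, and the log2 fold change was -0.13 ± 0.11 (-0.38 to 0.11; adjusted p = 0.999). Without both libraries numbered 3 the log2 fold changes were -0.03 for Hsp90ab1 and -0.04 for Hsp90aa1. Gm12346 and Gm5844, processed pseudogenes that share 99.5% and 98.5% of their bases with Hsp90aa1, held 580 and 195 reads over all libraries, against 178575 in Hsp90aa1.

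Chordc1 (ENSMUSG00000001774, chr9:18292125-18317442, plus strand) encodes an HSP90 partner with CHORD domains, also called morgana. It had 112, 97.3 and 115 CPM in BrmKO, against 140.2, 139 and 119 CPM in WT. All BrmKO libraries lay below all WT libraries, though WT replicate 3 was close to BrmKO replicate 3. The log2 fold change was -0.29 ± 0.10 (95% interval -0.52 to -0.06; edgeR, unadjusted p = 0.0179, adjusted p = 0.706), and -0.41 ± 0.09 without both libraries numbered 3 (adjusted p = 0.168). Over all alternatives the adjusted p ranged from 0.168 to 1.0. Of 22 listed HSP90 genes and cochaperones, all tested, 16 lay below 0 and 6 above, with a median of -0.05, and 0 passed. Cacybp stood at 235 ± 26.9 CPM in BrmKO and 271 ± 16.8 CPM in WT (-0.21 ± 0.10, adjusted p = 0.883). Sugt1, an HSP90 partner with a CS domain, stood at 50.3 ± 1.66 CPM in BrmKO and 44.2 ± 2.68 CPM in WT (0.19 ± 0.10, adjusted p = 0.902). Ahsa1, the activator of the HSP90 ATPase, had a log2 fold change of -0.12 ± 0.08.

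The inducible and constitutive paralogs were then set against each other within each library. Hspa1a and Hspa1b together stood at 0.698, 1.43 and 1.12 times the TPM of Hspa8 in BrmKO replicates 1 to 3, against 0.482, 0.633 and 2.20 times in WT. The mean ratios were 1.08 ± 0.369 in BrmKO and 1.11 ± 0.953 in WT (SD, n = 3 each; exact permutation p = 0.80, two-sided, on log2 ratios; 0.1 is the smallest p that 3 against 3 allow). Hsp90aa1 stood at 0.246, 0.250 and 0.298 times Hsp90ab1 in BrmKO, against 0.249, 0.250 and 0.362 times in WT (exact permutation p = 0.60, two-sided). Replicate 3 had the highest Hsp90aa1 ratio of its genotype in both groups. The same held for the HSP70 ratio in WT, while in BrmKO replicate 2 was highest. In log2 terms the HSP70 ratio differed by 0.25 (BrmKO minus WT), and by 0.86 without both libraries numbered 3 (exact permutation p = 0.333, the smallest that 2 against 2 allow).

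**Figure D3:**
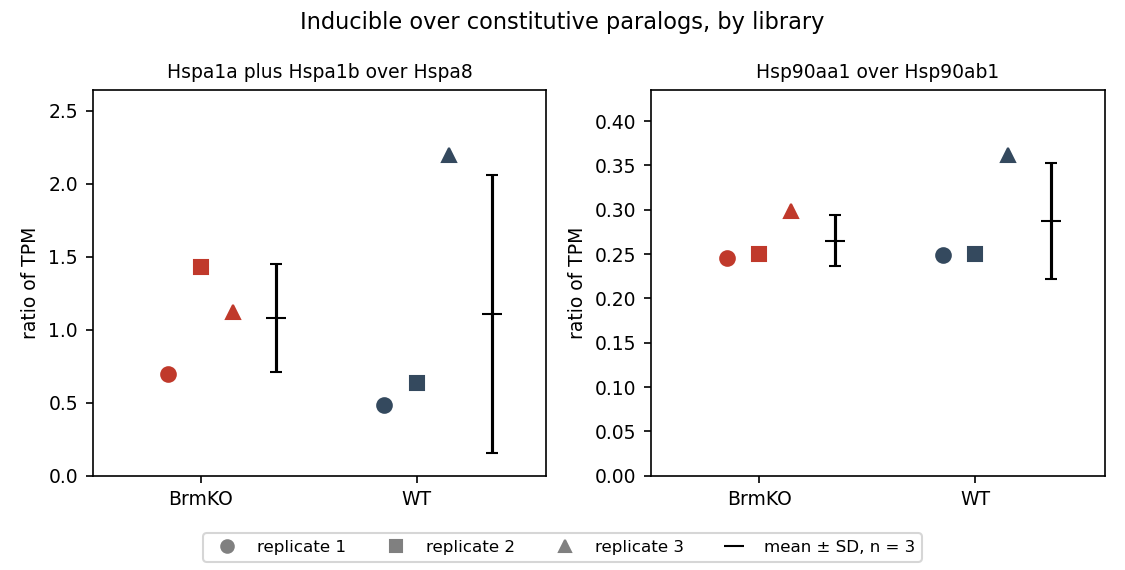
Ratio of TPM of the stress-inducible to the constitutive paralog in each library, for HSP70 (left) and HSP90 (right), with group means and SD as bars. WT replicate 3 is highest in both panels, at 2.20 and 0.362, and the genotypes overlap.

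Hspd1 (ENSMUSG00000025980, chr1:55077835-55088243, minus strand) encodes HSP60, the chaperonin that folds imported proteins in the mitochondrial matrix. It had 477, 476 and 355 CPM in BrmKO, against 528, 559.8 and 369 CPM in WT. Replicate 3 was lowest in both genotypes, and the groups overlapped, as BrmKO replicates 1 and 2 lay above WT replicate 3. The log2 fold change was -0.16 ± 0.17 (95% interval -0.54 to 0.22; edgeR, adjusted p = 0.999), and -0.19 without both libraries numbered 3 (adjusted p = 0.341). Hspe1, the HSP10 cofactor gene that lies head to head with Hspd1 and overlaps its start by 112 bases, differed from it in replicate 3. It had 159, 204 and 270.2 CPM in BrmKO, against 170.2, 198 and 349.8 CPM in WT, and was highest in replicate 3 of both genotypes (log2 fold change -0.18 ± 0.30). Hspd1-ps3, a processed pseudogene with 99.0% identity to Hspd1, held 448 reads over all libraries, against 87944 in Hspd1. Of 17 mitochondrial chaperone and protease genes tested, 11 lay below 0 and 6 above, with a median of -0.01, and 0 passed. Trap1, the mitochondrial HSP90, had a log2 fold change of 0.09 ± 0.09, Clpx, a protease ATPase, of 0.08 ± 0.09, and Dnajc19, of the import motor, of -0.13 ± 0.12.

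Across the 10 members, 0 passed the adjusted threshold of 0.05 (edgeR), where 0.14% of all 15691 tested genes passed in either direction, 0.0574% lower and 0.0829% higher in BrmKO. An unadjusted p under 0.05 was found for 3 of the 10, Hsph1, Chordc1 and Hspa8, all lower in BrmKO, against 2.71% of all genes in that direction and 5.85% in either, and DESeq2 called 1. The groups did not overlap for 2 members, Hsph1 and Chordc1, both lower in BrmKO, against 5.37% of all genes in that direction. All 10 had a log2 fold change below 0, as did 51.2% of all genes, and the median was -0.22 against -0.01 over all genes. Several members shared a pattern across libraries (Hspa1a, Hspa1b and Dnajb1), so the members are not separate cases. Without both libraries numbered 3, 7 of 10 lay below 0 and the median was -0.05, with Hspa1a, Hspa1b and Dnajb1 above 0. Since LSK cells are a mixture, fewer cells of a type and less RNA per cell cannot be told apart.

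Of 29 listed HSF1 target genes, 9 of them members, 27 lay below 0 and 0 passed with edgeR, against 0.14% of all genes. An unadjusted p under 0.05 was found for 5, of which 4 were lower and 1 higher in BrmKO, against 5.85% of all genes, and DESeq2 called 1, Hsph1, against 0.739%. Without both libraries numbered 3, 21 of the 29 lay below 0 and 9 had an unadjusted p under 0.05, with 0 passed. The share of all genes with such a p in that fit was not counted, so the 9 cannot be set against a background. For the 20 that are not members, 18 lay below 0 and 2 above, with a median of -0.13. Hmox1, the haem oxygenase gene, had 8.32, 6.13 and 8.0 CPM in BrmKO, against 26.3, 12.4 and 8.93 CPM in WT (-1.09 ± 0.36, adjusted p = 0.644). Cryab, a small heat shock protein gene, stood at 0.635, 0.941 and 1.19 CPM in BrmKO and 0.442, 0.400 and 0.246 CPM in WT (1.33 ± 0.51, adjusted p = 0.772). Hspb1, the gene of HSP27, was also highest in WT replicate 3, with 13.8, 29 and 20.7 CPM in BrmKO, against 8.39, 18.5 and 59.0 CPM in WT. Over all 127 other chaperone and HSF genes of the lists, 120 were tested, 80 lay below 0 and 40 above, and the median was -0.04.

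**Figure D4:**
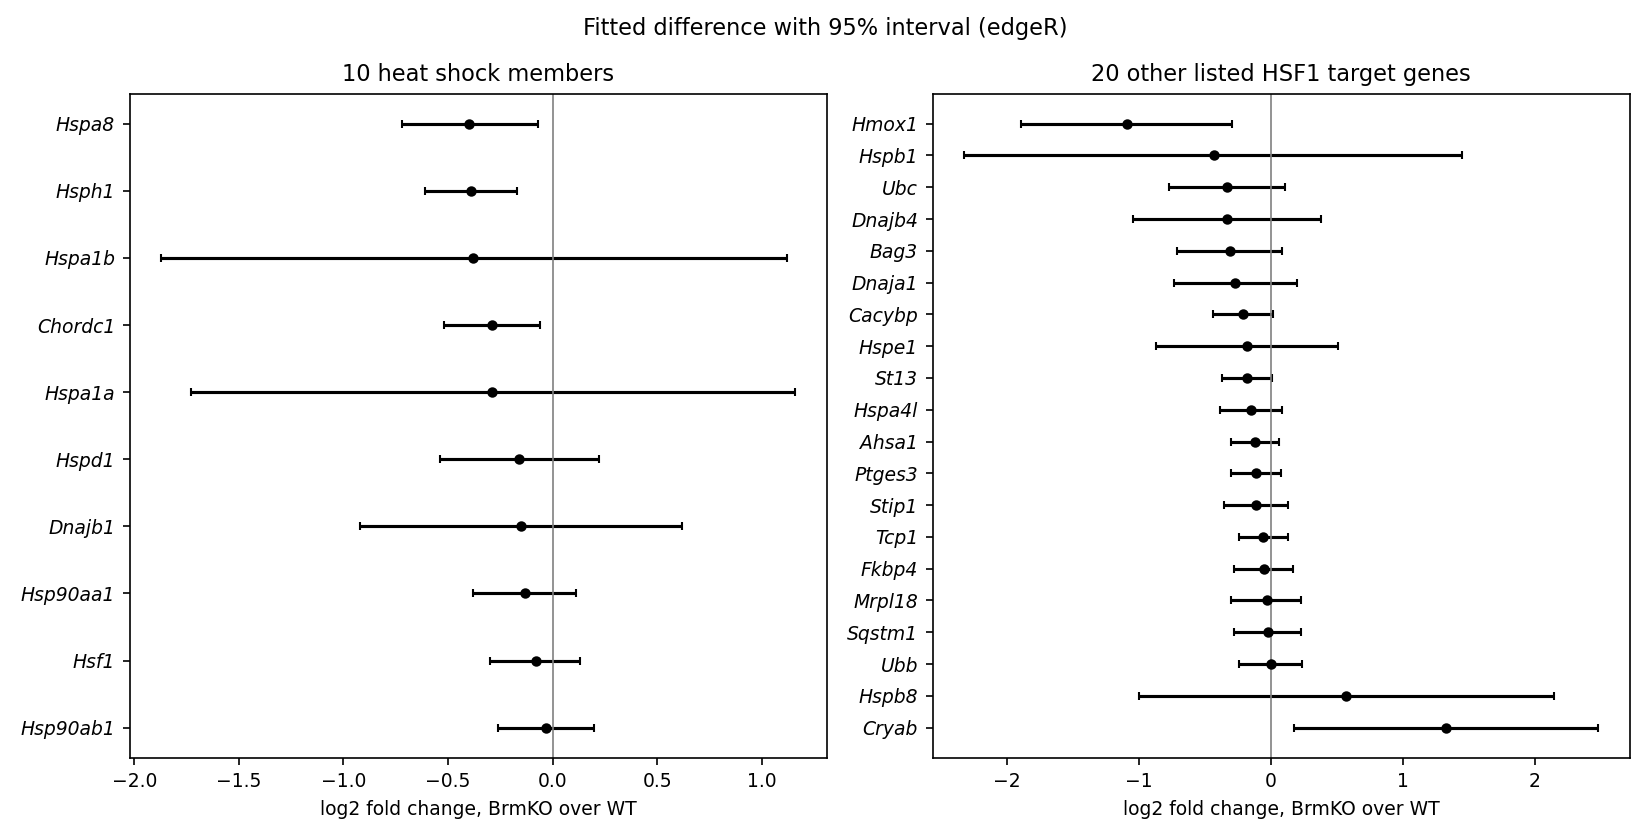
Fitted log2 fold change of BrmKO over WT with its 95% interval (edgeR, horizontal axis) for the 10 members (left) and for 20 other listed HSF1 target genes (right). All 10 members lie below 0, with the interval clear of 0 for Hspa8, Hsph1 and Chordc1 before adjustment, and the intervals of Hspa1a and Hspa1b span more than those of the other members.

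Among the members, Hspa1b, Hspa1a and Dnajb1 varied most over the 6 libraries. The highest of the 6 libraries held 4.05 times the lowest for Hspa1b, 3.83 times for Hspa1a and 2.46 times for Dnajb1. These lay at percentiles 99.7, 99.6 and 99.4 of that ratio among the 2828 genes with a mean of at least 100 CPM, whose median was 1.24. Hspa8, Hspd1, Hsph1 and Chordc1 varied by 1.81, 1.58, 1.56 and 1.44 times (percentiles 98.2, 96.0, 95.5 and 90.6). Hsp90aa1, the inducible HSP90, varied by 1.34 times (percentile 75.5), and Hsf1 and Hsp90ab1 by 1.24 and 1.2 times. Both libraries numbered 3 lay above the other 4 for 3 members, Hspa1a, Hspa1b and Dnajb1, and below them for 3, Hsf1, Hsp90ab1 and Hspd1, whereas 17.3% of all genes were highest and 16.7% lowest in both. Several chaperone lists, some of which hold members, were often lowest in both as well: 12 of 23 ER genes, 9 of 17 mitochondrial, 8 of 18 J-domain, 7 of 13 HSP70 cochaperone and 9 of 22 HSP90 genes. Of these lists, in that order, 2, 5, 1, 1 and 3 genes were highest in both. Other lists did not lean that way. Lowest and highest in both were 4 and 5 of 14 TRiC and prefoldin genes, 3 and 3 of 12 HSP110 and HSP70 genes, and 0 and 0 of 8 small heat shock protein genes. These counts were made after the values were seen and were given no test.

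Some markers of other cells and of early gene induction also differed in those libraries. Of 9 neutrophil markers, 7 were highest in both libraries numbered 3. Ngp, a granule protein gene, had 2.07, 1.5 and 6.19 CPM in BrmKO and 1.91, 0.923 and 6.75 CPM in WT. The markers summed to 3784 to 4958 CPM in BrmKO and 3961 to 4475 CPM in WT, mostly Mpo (3869.6 ± 589 CPM in BrmKO and 3756 ± 208 CPM in WT) and Elane (454 ± 48.4 and 449 ± 85.5 CPM), which LSK progenitors also express. Ly6g, a defining marker, had 0 reads in 4 libraries. Of 10 erythroid markers, 6 were highest in both. The sums of that list, 229 to 303 CPM in BrmKO and 237 to 355 CPM in WT, were led by Tfrc, Klf1 and Epor, which were not among the 6. Of 24 immediate early genes, which respond fast to handling and other stimuli, 9 were lowest in both, with sums of 15288 to 19013 CPM in BrmKO and 11759 to 17498 CPM in WT. The WT sum was lowest in replicate 1 (11759 CPM, against 12139 CPM in replicate 3). Egr1 had 1293, 1410.1 and 803 CPM in BrmKO, against 773, 1245 and 554 CPM in WT. It was lowest in replicate 3 of each genotype but was not among the 9, as BrmKO replicate 3 lay above WT replicate 1. Between genotypes 0 of the 24 passed, 14 lay above 0 and 10 below, and the smallest p were those of Klf4, Dusp1 and Fos (1.43 ± 0.30, 0.59 ± 0.18 and 0.67 ± 0.23; adjusted p = 0.194, 0.59 and 0.706). Of the platelet and megakaryocyte markers all 9 tested lay below 0 and 1 passed (Pf4, lower in BrmKO), and their sum was 484 to 704 CPM in BrmKO and 736 to 1025 CPM in WT. B lineage markers summed to 622 to 700.4 CPM in BrmKO and 1371, 699 and 772 CPM in WT replicates 1 to 3. All 7 tested lay below 0 (median -0.45). Of 12 stromal and endothelial markers 9 lay below 0 (median -0.75), with WT replicate 1 far above the other libraries. The mean log2 deviation of this list from the mean of all libraries was 1.46, 0.03 and -0.19 in WT replicates 1 to 3. In BrmKO replicates 1 to 3 it was -0.38, -1.27 and 0.35, so BrmKO replicate 3 lay above WT replicates 2 and 3. Groups without overlap, lower in BrmKO, were found for 5 (Kdr, Plvap, Emcn, Lepr and Pdgfra, the last with 0 reads in BrmKO), against 5.37% of all genes. The sums, 365 to 439 CPM in BrmKO and 563, 414 and 372 CPM in WT replicates 1 to 3, were largely Pecam1 and Pdgfrb. Such counts were 4 for platelet and megakaryocyte markers and 1 for erythroid markers. They were 2 each for B lineage, monocyte and macrophage, and mast cell and basophil markers. Higher in BrmKO without overlap were 2 T and NK markers, 1 mast cell and basophil marker and 1 immediate early gene. Among the LSK markers, Flt3 was also higher without overlap. Over all 15691 genes tested, 893 were higher in BrmKO without overlap. Monocyte and macrophage markers had 6 of 10 below 0 (median -0.24, sums 313 to 359.9 CPM in BrmKO and 349 to 435 CPM in WT), and mast cell and basophil markers 5 of 7 (median -0.14, sums 425 to 611 CPM in BrmKO and 493 to 699 CPM in WT). Of 9 T and NK markers 6 were tested, 4 above 0 and 2 below (median 0.34), with sums of 236 to 244 CPM in BrmKO and 231 to 264 CPM in WT, mostly Nkg7. Ncr1 of that list had 0.602, 0.976 and 1.48 CPM in BrmKO, against 0.221, 0.215 and 0.211 CPM in WT (adjusted p = 0.327), and Cd3e had 0 reads. In these 5 lists 0 genes passed. The part of these cells, or of handling, in the chaperone values was not tested.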

How the data were processed

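RNA-seq counts of 6 LSK libraries, 3 BrmKO and 3 WT, were used. The authors deposited 1 table per library, with raw counts of reads for each Ensembl gene. Per the submitters' processing notes, bcl2fastq, FastQC, STAR, HTSeq and DESeq2 were used with GRCm38. Their versions, the strand setting and the annotation release were not given in the sources used here. Per the labels' protocols, libraries were made with the Smart-Seq v4 Ultra Low Input kit, for which no molecular identifiers are named, so reads are not independent molecules. The p-values measure the spread between these samples. The 5 rows that name no gene were left out (reads outside genes 5.79% to 9.29%, ambiguous 6.23% to 6.47%).

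Symbols, positions and exon lengths came from GENCODE M21 (GRCm38), with a position for 55227 of 55487 genes. BrmKO was compared with WT by edgeR 4.0.16 (R 4.3.3), quasi-likelihood test with robust dispersion, TMM and filterByExpr, which kept 15691 genes, without covariates, and p-values were adjusted by Benjamini-Hochberg over those genes (threshold 0.05). Depth was 28.01 to 36.46 M reads, and 3 reads are 0.0823 to 0.107 CPM. Alternatives were other size factors, no filter, DESeq2 1.42.0, limma-voom (limma 3.58.1), a replicate block and left-out libraries. Near-identical copies were searched with minimap2 2.31 (at least 95% identity over 50% of the length). Promoter sequences are from RefSeq, GRCm38.p6.

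The members, gene lists and tests were chosen with earlier results of these data known. Besides the members and Smarca2, up to 3 genes with the smallest p were named per list and up to 3 with the highest level per cell type list. Hsf2, Hspa1l, Dnaja1, Hspa4, Hspa5, Eef1a1, Ahsa1, Hspb1, Hspe1, copies and overlapping genes, Ngp, Egr1, Ly6g, Pf4, Cd3e, Ncr1, Nkg7 and the stromal and endothelial genes were named after their values were seen.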

Additional observations from a re-analysis of the deposited data

How the results depend on the processing

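With 3 libraries a group, the intervals of Hspa1a and Hspa1b cover changes in either direction. In all, 22 genes passed. That number was 58 with no low-count filter, 142 with DESeq2 and 6 to 36 when single libraries were left out (9 without BrmKO replicate 1, and 7, 6 and 36 without WT replicates 1, 2 and 3). Among the members, 0 passed in these fits except with DESeq2 (1, Hsph1), and the same holds for the HSF1 targets (0, and 1 with DESeq2; 0 with each library left out). The members' median log2 fold change was -0.14 with limma-voom and with the replicate block, -0.05 without both libraries numbered 3 (chosen after seeing the data), and -0.33 to -0.11 with single libraries left out. Without both libraries numbered 3, Hspa1a, Hspa1b and Dnajb1 stood at 0.27, 0.24 and 0.13. With single libraries left out they ranged from -0.63 to 0.47, -0.72 to 0.43 and -0.40 to 0.29, and Hsp90ab1 from -0.09 to 0.03. The log2 difference of the paralog ratios ranged from -0.18 to 0.91 for HSP70 and from -0.19 to 0.08 for HSP90. The cause was not tested. Hsph1, Chordc1, Hspa8, Hsf1, Hsp90aa1 and Hspd1 lay below 0 in every alternative run.

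The replicate numbers were not taken to pair the samples: deviations from the group means correlated at 0.0518, 0.00775 and 0.194 for numbers 1 to 3, and BrmKO replicate 1 correlated best with WT replicate 2 (0.168). The value for number 3 was the highest of all pairs, and the libraries numbered 3 also stood apart on the second principal component. With the replicate block 25 genes passed, and 0 members.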

Other observations

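Chaperones of the endoplasmic reticulum answer mainly to the unfolded protein response rather than to HSF1. They are given for comparison, in 1 list with other genes of that response, such as Xbp1, Atf6 and Ern1. Of 24 listed genes, 23 were tested, 18 lay below 0 and 5 above (median -0.07), and 0 passed with edgeR. Hspa5, the gene of BiP, had 3059.5, 2252 and 1862 CPM in BrmKO, against 2695, 3100 and 1455 CPM in WT, lowest in replicate 3 of both genotypes (log2 fold change -0.02 ± 0.28). Hyou1, which encodes an HSP70 relative of that compartment, had 163, 223 and 78.1 CPM in BrmKO, against 91.7, 95.8 and 53.3 CPM in WT (0.95 ± 0.43, adjusted p = 0.878). Sdf2l1, a cofactor of BiP, stood at 100.4 ± 0.339 CPM in BrmKO and 117 ± 14.7 CPM in WT (-0.23 ± 0.10, adjusted p = 0.841).

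The proteasome subunits, 31 tested, had a median of -0.02 with 0 passed, and 14 of them were highest in both libraries numbered 3. Psmc6, Psmc2 and Psmd14, which led that list by p, stood at log2 fold changes of -0.21 ± 0.13, 0.10 ± 0.09 and -0.16 ± 0.16. The cytosolic chaperonin TRiC and prefoldin, 14 tested, had a median of -0.05 with 11 below 0 and 0 passed, led by Cct4 at 431 ± 45.4 CPM in BrmKO and 482 ± 61.5 CPM in WT (-0.16 ± 0.12). Of 8 small heat shock protein genes 4 were tested, at low levels. Hspb6 stood at 6.98 ± 1.09 CPM in BrmKO and 4.64 ± 0.739 CPM in WT (0.59 ± 0.23, adjusted p = 0.782).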
